A study of Mus musculus with 20 samples.

Results

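The myogenic regulatory factors Myod1, Myf5, Myog and Myf6, the MEF2 family members Mef2a, Mef2c and Mef2d, and the homeodomain factors Pax7 and Six4 were followed through total RNA sequencing of cultured mouse muscle cells. These 9 genes were chosen by symbol, all 9 were found among the 26722 genes of the deposited count table, and all 9 were among the 14605 genes that passed the filter on low counts. The C2C12 line of mouse myoblasts was used, grown to near confluence in medium with 10% fetal bovine serum and then held in 2% horse serum for 5 days to form myotubes. Myotubes were exposed for 16 h to 1 of 5 treatments, each with 4 biological replicates numbered 1 to 4, and every treatment contained an antibody at 7.7 nM. The control received b12, a negative control antibody of human IgG4 type, and the bivalent 13-3B5 group received an antibody that activates the muscle-specific kinase MuSK. The 3 remaining groups received neural agrin, the natural activator of MuSK, at 0.1 nM, combined with b12 (the agrin group), with 13-3B5xb12 or with 11-3F6xb12. The labels describe these last antibodies as monovalent and as inhibiting MuSK. All libraries come from this 1 cell line.

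MyoD, Myf5, myogenin and MRF4 (the product of Myf6) are basic helix-loop-helix proteins that bind E-boxes as dimers with E proteins and turn on the muscle gene programme. Myod1 and Myf5 act in myoblasts, Myog drives terminal differentiation, and Myf6 is mainly a gene of maturing fibres. MEF2 proteins bind an A/T-rich element and act together with the helix-loop-helix factors, Pax7 marks satellite cells and their cultured counterparts, and Six4 is a homeodomain factor that binds MEF3 elements in muscle genes.

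The libraries carried between 18424881 and 23343903 counts. All 10 myotube markers examined were detected in every treatment, and their summed level ranged from 13610 to 17780 CPM (gene counts scaled to a library size common to all samples). Mitochondrial transcripts took 27.9% to 39.1% of the counts. Most of this share was 1 mitochondrial ribosomal RNA, mt-Rnr2. It took 25.4% of the counts in agrin replicate 3 and 35.9% in replicate 1 of agrin with 11-3F6xb12, the libraries with the lowest and highest shares. Control replicate 2 and replicate 1 of agrin with 13-3B5xb12 stood apart from the other libraries on the second principal component, and the agrin replicate 3 library held liver transcripts at a summed 20.75 CPM, against at most 0.6334 CPM in any other library. Results are therefore also given without these 3 libraries where they differ. In bulk RNA, fewer cells of a type and less RNA per cell cannot be told apart.

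Promoter sequences are shown for Myog, the most abundant of the 9 genes, and for Mef2c and Six4, the 2 genes whose levels differed between replicate numbers. RefSeq start sites (GRCm38.p6) were matched for 7 of the 9 genes, with 10 start sites in all, and the 250 bases before each start were searched on both strands. The motifs were the E-box CANNTG, a MEF2 core CTANNNNTA and the MEF3 element TCAGGTTTC, and capitals mark every match to any of them. The Myog sequence lies on the plus strand at chr1:134289754-134290003, its last bases inside the GENCODE gene, and the Mef2c sequence, which precedes the most upstream of 3 start sites, on the plus strand at chr13:83503784-83504033. The Six4 sequence is a stretch of 29 bases on the minus strand at chr12:73113326-73113354, which the GENCODE annotation places inside the Six4 gene.
Myog: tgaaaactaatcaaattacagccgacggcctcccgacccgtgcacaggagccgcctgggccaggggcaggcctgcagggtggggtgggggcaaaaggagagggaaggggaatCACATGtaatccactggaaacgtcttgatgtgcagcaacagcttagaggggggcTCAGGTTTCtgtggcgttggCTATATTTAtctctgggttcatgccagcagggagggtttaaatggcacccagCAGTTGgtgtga
Mef2c: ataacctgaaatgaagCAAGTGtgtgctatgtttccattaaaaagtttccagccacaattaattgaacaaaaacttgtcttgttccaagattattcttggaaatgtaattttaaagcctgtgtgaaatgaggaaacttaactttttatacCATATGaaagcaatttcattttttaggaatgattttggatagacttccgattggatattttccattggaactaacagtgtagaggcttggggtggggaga
Six4: tggcctggggGAAACCTGAtcggccagat

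The Myog promoter held the MEF3 element from -84 to -76 relative to the start, the MEF2 core from -64 to -56 and 2 E-boxes, beginning at -138 and at -12. The shown Mef2c sequence held 2 E-boxes, beginning at -234 and at -100, and neither of the other motifs. The window before the most downstream Mef2c start held a match to the MEF2 core pattern from -191 to -183. Its letters were CTAACGATA, so the middle of this match was not made of A and T only. The Six4 stretch held the MEF3 element on the opposite strand, from -99 to -91 relative to the downstream of 2 start sites. The window before the upstream Six4 start held no MEF3 match. Among 32851 RefSeq promoter windows of the same length, 66.2% held the E-box, 19.0% the MEF2 core and 0.387% the MEF3 element. The MEF3 letters were thus present before 2 of the 7 matched genes, Myog and Six4. A match describes the letters only, since binding was not measured.

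Myog had the highest level per length, and Pax7 and Myf6 had the lowest. Per kb of merged exons in GENCODE M21, Myog reached 388.4 ± 29.6 CPM per kb (SD, n = 20 libraries), with a range of 331.2 to 447.4. Myod1 followed at 21.76 ± 1.89 CPM per kb and Mef2c at 13.71 ± 2.19 CPM per kb. Mef2a at 7.667 ± 1.33, Six4 at 7.025 ± 0.629, Mef2d at 6.901 ± 0.549 and Myf5 at 5.927 ± 1.39 CPM per kb had means that differed from their neighbours in the order by less than the larger SD. Pax7 at 0.2807 ± 0.122 and Myf6 at 0.2581 ± 0.241 CPM per kb came last, and these 2 also did not differ beyond their spread. Dividing by the longest transcript instead placed Mef2c at 34.33 CPM per kb, above Myod1 at 21.76 CPM per kb, and raised Mef2a to 20.32 and Six4 to 11.19 CPM per kb, while Mef2d was at 7.647 and Myf5 at 5.927 CPM per kb. The order of Mef2c and Myod1, and the closeness of Mef2a, Six4, Mef2d and Myf5, thus depended on the length used.

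**Figure D1:**
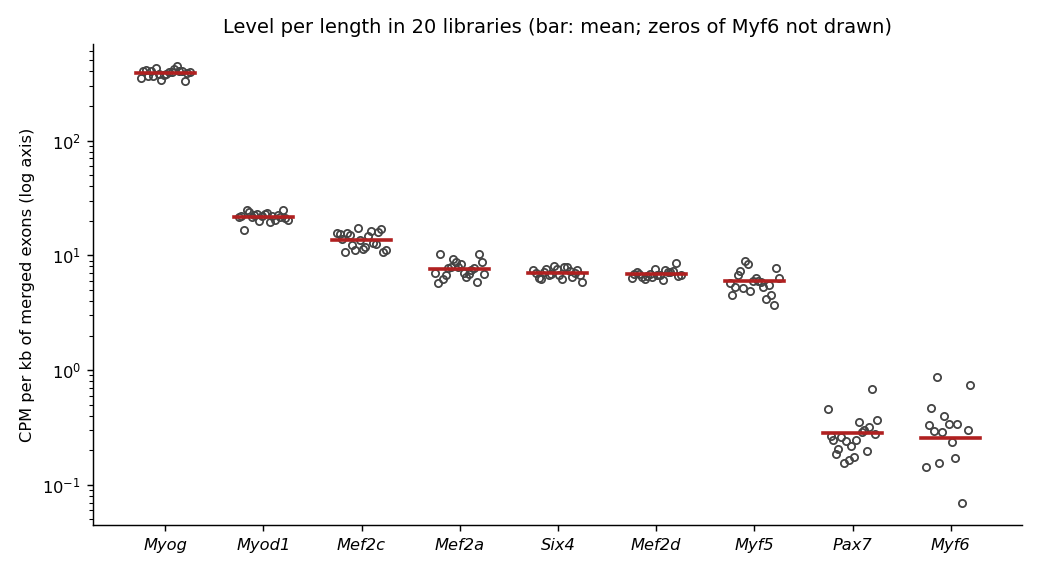
CPM per kb of merged exons (log axis) for each of the 9 genes, with 1 point for each of 20 libraries and a bar at the mean. Myog stands above every other gene at 331.2 to 447.4 CPM per kb, and Pax7 and Myf6 lie lowest; the 5 libraries in which Myf6 had 0 counts are not drawn.

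The genes are given with their positions in GRCm38 (GENCODE M21). Myod1 lies on chromosome 7 from 46376474 to 46379099, Myog on chromosome 1 from 134289989 to 134292548, and each has 1 annotated transcript of 3 exons. Myf5 (chromosome 10, 107482908 to 107486134) and Myf6 (chromosome 10, 107492853 to 107494737) lie 6718 bases apart on the same strand. Mef2a spans chromosome 7 from 67231163 to 67372858, Mef2c chromosome 13 from 83504034 to 83667080 and Mef2d chromosome 3 from 88142372 to 88172086. Pax7 spans chromosome 4 from 139737062 to 139833528 and Six4 chromosome 12 from 73099609 to 73113456. Mef2a overlaps Lysmd4 on the opposite strand, which averaged 337 counts, and Mef2d overlaps the antisense gene 1700113A16Rik, which averaged 6.35 counts. The strand setting of the counting is not given in the sources used here, so reads in the shared stretches of these pairs cannot be assigned with certainty.

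No treatment difference was called for any of the 9 genes. In edgeR's quasi-likelihood test, 0 of 9 genes were called in agrin against control, in bivalent 13-3B5 against control, in agrin with 13-3B5xb12 against agrin or in agrin with 11-3F6xb12 against agrin, at a Benjamini-Hochberg adjusted p-value under 0.05. The background was the same, with 0% of 14605 genes called in each comparison and 0% in the test for any difference among the 5 treatments, and DESeq2 also called 0 genes in each. A fit with the replicate number as a block gave 2 genes for agrin with 11-3F6xb12, and neither was among the 9. At an unadjusted p under 0.05, the 4 comparisons held 416, 404, 560 and 487 genes (2.77% to 3.83%), and the test among all treatments 329 (2.25%). Each share lay below the 0.05 that the threshold gives when no gene differs. This fit left out the split between replicates 1 and 2 and replicates 3 and 4 (below). With that split as a term the numbers were 601, 611, 756, 733 and 609, and again none of the 9 genes was called at an adjusted p under 0.05. Of the 36 tests of the 9 genes, 1 reached an unadjusted p under 0.05, that of Myf5 in agrin with 11-3F6xb12. Groups overlapped for all 9 genes in all 4 comparisons, and 1.72% to 2.90% of all genes had groups that did not overlap.

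**Figure D2:**
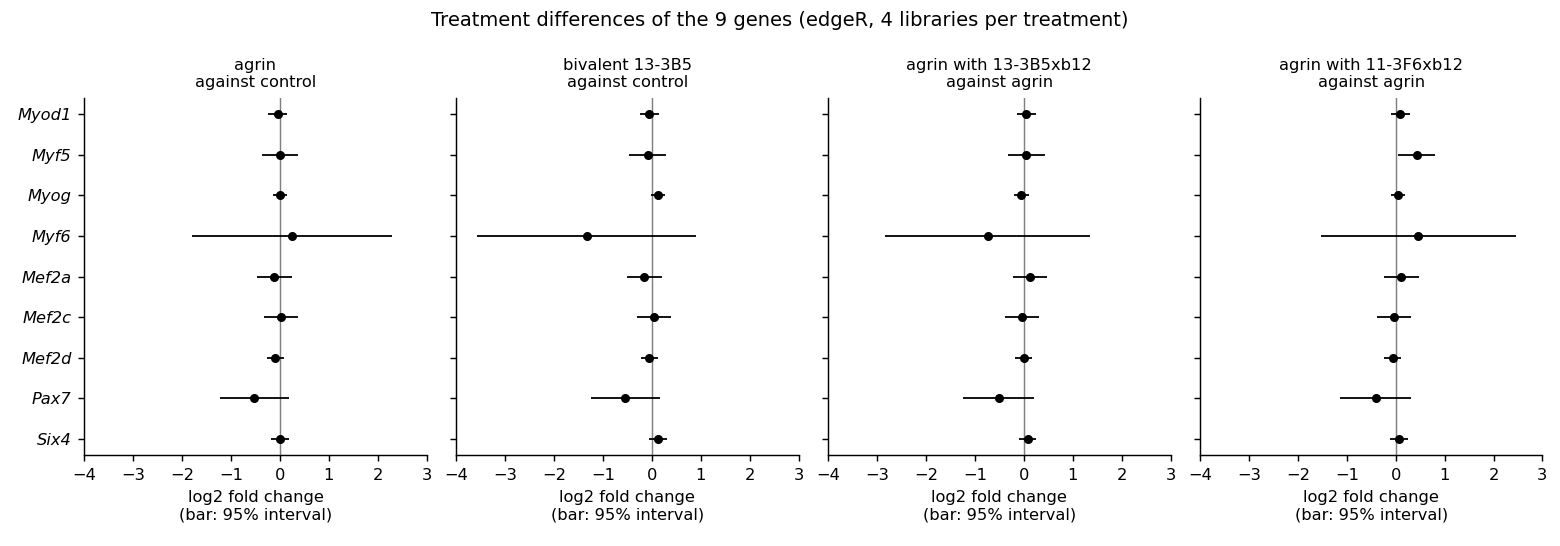
Log2 fold change of each gene in the 4 treatment comparisons, with bars for the 95% interval (4 libraries per treatment). All intervals include 0 except that of Myf5 in agrin with 11-3F6xb12 against agrin (0.06 to 0.80), and the intervals of Myf6 are the widest.

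Among the helix-loop-helix factors, Myog, the driver of terminal differentiation, was the most tightly measured. In replicates 1 to 4, Myog stood at 601, 495, 585 and 596 CPM in the control and at 525, 598, 614 and 546 CPM with agrin. It stood at 597, 624, 669 and 598 CPM with bivalent 13-3B5, so that all 4 libraries lay above 3 of the 4 controls and 2 of them above every control. With agrin and 13-3B5xb12 the Myog values were 501, 554, 563 and 588 CPM, and with agrin and 11-3F6xb12 they were 603, 543, 643 and 568 CPM, overlapping the agrin group in both cases. The largest difference was 0.13 on the log2 scale (SE 0.077, interval -0.02 to 0.28, adjusted p = 0.999) for bivalent 13-3B5 against control, and it was 0.07 without the 3 libraries that stood apart. Agrin against control gave a log2 difference of 0.00 (SE 0.077), with an interval from -0.15 to 0.15.

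Myod1, the myoblast determination factor, had treatment means between 39.28 ± 2.536 CPM with bivalent 13-3B5 and 42.03 ± 1.703 CPM with agrin and 11-3F6xb12 (SD, n = 4). The ratio of the highest to the lowest mean was 1.07, and every neighbouring pair in the order differed by less than the larger SD. Its lowest value was 30.7 CPM, in agrin replicate 3, the library with liver transcripts, and its highest, 45.9 CPM, was in agrin replicate 4.

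Myf5, the second myoblast factor, varied more. Its values in replicates 1 to 4 were 9.35, 7.62, 16.3 and 13.1 CPM in the control, 12.2, 11.1, 8.74 and 11.6 CPM with bivalent 13-3B5, and 11.9, 9.34, 11.0 and 14.2 CPM with agrin. With agrin and 13-3B5xb12 the values were 10.2, 12.5, 13.1 and 12.4 CPM, all inside the range of the agrin group. The mean was highest with agrin and 11-3F6xb12, at 15.6 ± 3.429 CPM, above the next by more than either SD. The values there were 15.2, 10.9, 18.6 and 17.6 CPM, and 3 of these 4 libraries lay above all agrin libraries. The log2 difference from agrin was 0.43 (SE 0.191, interval 0.06 to 0.80), with an adjusted p = 1 in edgeR's fit. It was 0.42 with the split between replicates 1 and 2 and replicates 3 and 4 as a term, 0.40 without the 3 libraries that stood apart, 0.30 within replicates 1 and 2 and 0.53 within replicates 3 and 4. In bivalent 13-3B5 against control, Myf5 took opposite signs on the 2 sides of that split, with log2 differences of 0.46 in replicates 1 and 2 and -0.53 in replicates 3 and 4. The test of the change in sign gave an adjusted p = 0.847 over all genes in edgeR.

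Myf6 was at the edge of detection. It had 0 to 23 counts per library, with 5 of 20 libraries at 0 and 6 at or under 3 counts, the level taken as the detection limit (0.125 to 0.161 CPM). The counts in replicates 1 to 4 were 8, 20, 0 and 0 in the control, 9, 0, 2 and 0 with bivalent 13-3B5 and 4, 9, 14 and 9 with agrin. With agrin and 13-3B5xb12 they were 0, 8, 7 and 5, and with agrin and 11-3F6xb12 23, 4, 8 and 12. Libraries at or under the limit were 2 of 4 in the control, 3 of 4 with bivalent 13-3B5 and 1 of 4 with agrin and 13-3B5xb12. No library of agrin or of agrin with 11-3F6xb12 was, but the lowest count in each of these groups was 4, just above the limit. The standard errors of its log2 differences ranged up to 1.145, so a difference between treatments was not detectable at this depth unless it was several-fold.

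The 3 MEF2 genes likewise had overlapping treatments. Mef2c, the MEF2 gene with the highest level per length, had means between 212.3 ± 42.47 CPM with agrin and 13-3B5xb12 and 220.3 ± 27.50 CPM with bivalent 13-3B5. Its 4 treatment differences lay between -0.04 and 0.04 on the log2 scale with a standard error of 0.175 each. That fit left out the split between replicates 1 and 2 and replicates 3 and 4, by which Mef2c differed (below). Within each side of the split the standard error was 0.11 for every comparison, and the differences lay between -0.09 and 0.21. Mef2a had means between 104.7 ± 8.767 CPM with bivalent 13-3B5 and 117.2 ± 11.24 CPM with agrin and 13-3B5xb12, and its highest libraries were agrin replicate 3 at 152 CPM and control replicate 2 at 151 CPM, both among the libraries that stood apart. Mef2d had means between 39.10 ± 1.685 CPM with agrin and 11-3F6xb12 and 43.60 ± 5.081 CPM in the control, where replicate 2 held the highest value of all libraries, 50.8 CPM. Neighbouring treatments in the order of each MEF2 gene differed by less than the larger SD.

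Pax7, the satellite cell marker, was low, at 20 to 87 counts per library. In replicates 1 to 4 it stood at 1.86, 4.04, 1.64 and 2.17 CPM in the control, and control replicate 2 was the highest library of all. The other values were 2.07, 1.69, 1.76 and 1.16 CPM with bivalent 13-3B5 and 2.68, 1.55, 1.43 and 1.08 CPM with agrin. With agrin and 13-3B5xb12 they were 0.959, 1.29, 1.02 and 1.44 CPM, and with agrin and 11-3F6xb12 1.21, 1.53, 0.910 and 1.42 CPM. The log2 difference of agrin against control was -0.53 (SE 0.361, adjusted p = 1) and that of bivalent 13-3B5 against control -0.55 (SE 0.362, adjusted p = 0.999), and these 2 comparisons share the control libraries. Without the 3 libraries that stood apart, the differences were -0.10 and -0.18. Six4 had means between 73.39 ± 7.413 CPM in the control and 80.12 ± 7.763 CPM with bivalent 13-3B5. The log2 difference was 0.13 (SE 0.091, interval -0.05 to 0.30) and ranged from 0.06 to 0.19 when single libraries were left out. As for Mef2c, that fit left out the split between replicate numbers, by which Six4 differed (below). The difference was 0.13 within replicates 1 and 2 and 0.12 within replicates 3 and 4 (SE 0.1 each).

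**Figure D3:**
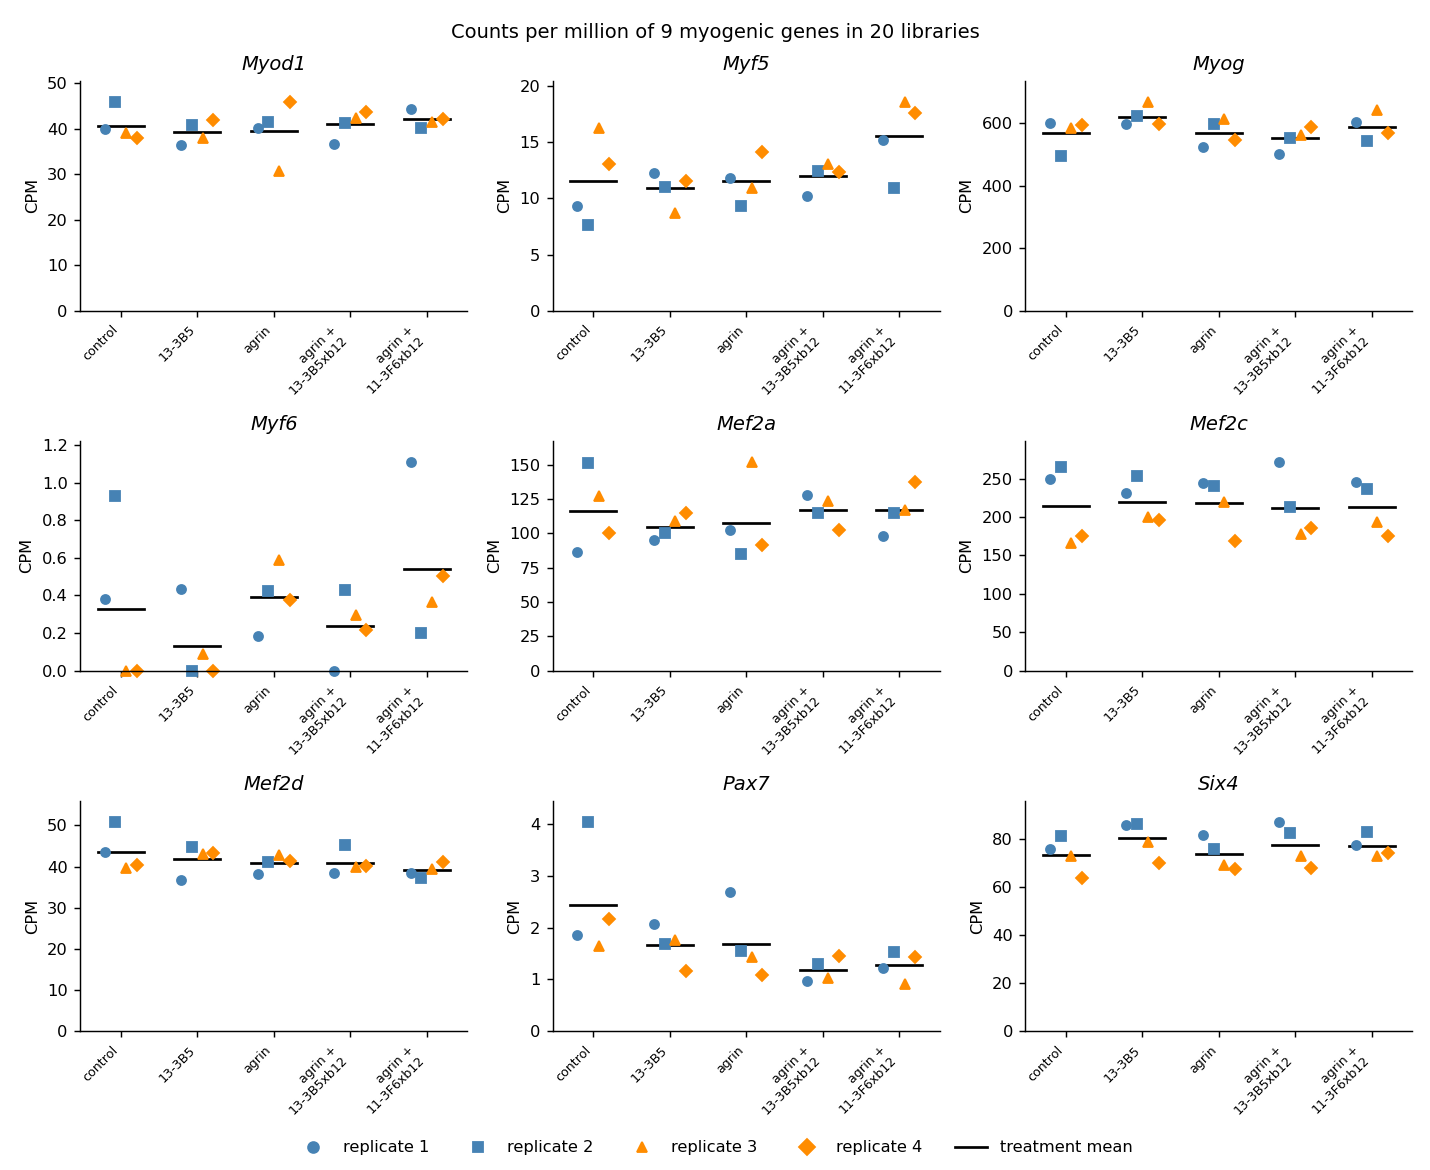
CPM of each of the 9 genes in each of 20 libraries, by treatment, with symbols for the replicate number, blue for replicates 1 and 2, orange for replicates 3 and 4, and a bar at the treatment mean. For Mef2c and Six4 both blue points lie above both orange points in all 5 treatments, while the treatments overlap for every gene in the 4 comparisons made.

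Replicate numbers, unlike treatments, separated the libraries. Replicates 3 and 4 of all treatments were compared with replicates 1 and 2, with the treatment kept in the model. The labels do not say what libraries of the same number share. The split was known from the first principal component of these same libraries, so the counts that follow describe the split and are not independent support for it. The test takes the 10 libraries on each side as independent. Its p-values and standard errors therefore do not measure variation between such sets of replicates. Over all genes, 13.1% of 14605 were called, with 5.93% higher and 7.13% lower in replicates 3 and 4. Of the 9 genes, 2 were called, Mef2c and Six4, both lower in replicates 3 and 4, and none was called higher.

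Mef2c ranged from 213.4 to 271.8 CPM in replicates 1 and 2, with a median of 244.8 CPM, and from 166.7 to 219.2 CPM in replicates 3 and 4, with a median of 181.9 CPM. Of the 10 libraries of replicates 1 and 2, 9 lay above every library of replicates 3 and 4. In replicates 1 and 2 and then 3 and 4, the Mef2c values were 249.8 and 265 against 167 and 175 CPM in the control, 231 and 254 against 200.1 and 196 CPM with bivalent 13-3B5, and 244 and 240.1 against 219 and 168 CPM with agrin. They were 272 and 213 against 178 and 186 CPM with agrin and 13-3B5xb12, and 246 and 237 against 193 and 175 CPM with agrin and 11-3F6xb12. Both libraries of replicates 3 and 4 thus lay below both of replicates 1 and 2 in 5 of 5 treatments, a pattern shown by 2.26% of all genes, against 1.42% in the opposite direction. The means were 245.2 ± 16.65 and 185.8 ± 16.41 CPM (SD, n = 10 each). Mef2c fell by 0.40 on the log2 scale (SE 0.048), with an adjusted p = 1.06e-07 in edgeR's quasi-likelihood test, and fell by 0.39 without the 3 libraries that stood apart.

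Six4 showed the same pattern with a smaller difference. It ranged from 75.86 to 86.92 CPM in replicates 1 and 2, with a median of 81.89 CPM, and from 63.52 to 78.64 CPM in replicates 3 and 4, with a median of 71.16 CPM. In replicates 1 and 2 and then 3 and 4, the Six4 values were 75.9 and 81.2 against 73.0 and 63.5 CPM in the control, 85.8 and 86.3 against 78.6 and 69.7 CPM with bivalent 13-3B5, and 81.5 and 75.9 against 69.1 and 67.5 CPM with agrin. With agrin and 13-3B5xb12 they were 86.9 and 82.3 against 72.6 and 68.0 CPM, and with agrin and 11-3F6xb12 77.4 and 82.9 against 72.9 and 74.0 CPM. Here too replicates 3 and 4 both lay below replicates 1 and 2 in 5 of 5 treatments. Six4 fell by 0.20 on the log2 scale (SE 0.042, adjusted p = 0.000638 in edgeR), from 81.60 ± 4.133 to 70.90 ± 4.213 CPM, and fell by 0.18 without the 3 libraries that stood apart.

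The other 7 genes did not pass the test between replicate numbers. Myf5 was nearest, with 11.03 ± 2.103 CPM in replicates 1 and 2 and 13.66 ± 3.088 CPM in replicates 3 and 4, a log2 difference of 0.30 (SE 0.106, adjusted p = 0.0595 in edgeR). Its difference was positive in 4 of 5 treatments, and it was called without the filter on low counts (adjusted p = 0.0332). Myog was higher on average in replicates 3 and 4 within 5 of 5 treatments, by 0.08 on the log2 scale (SE 0.042, adjusted p = 0.221), with means of 564.1 ± 46.48 and 597.1 ± 37.12 CPM. The log2 differences of Myod1 and Mef2d were -0.01 each, with intervals of -0.13 to 0.11 and -0.12 to 0.10. Mef2a differed by 0.13 (SE 0.115), Pax7 by -0.38 (SE 0.231) and Myf6 by -0.92 (SE 0.703). Leaving out single libraries moved the value of Mef2a from 0.06 to 0.21 and that of Myf6 from -1.18 to -0.58. Of the 3 MEF2 genes, Mef2c alone was called. Whether Mef2c and Mef2a differed from each other in this respect was not tested.

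**Figure D4:**
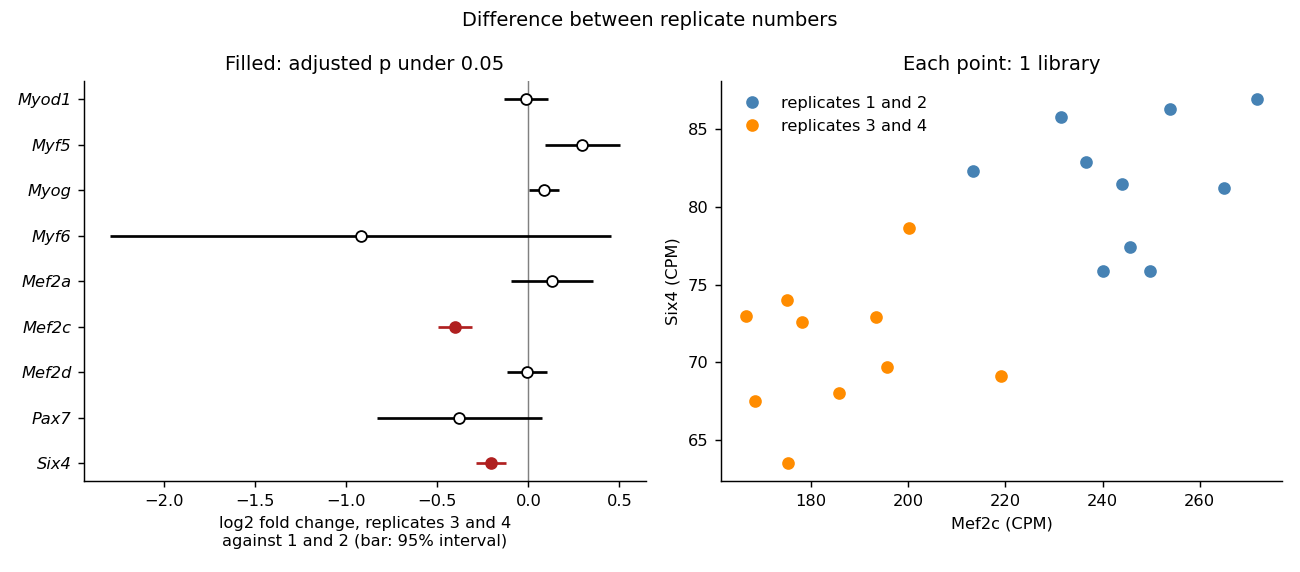
Left, log2 fold change of each gene in replicates 3 and 4 against 1 and 2, with bars for the 95% interval and filled red points for an adjusted p under 0.05. Right, CPM of Six4 against CPM of Mef2c in each of 20 libraries; the libraries of replicates 3 and 4 lie at 166.7 to 219.2 CPM of Mef2c and those of replicates 1 and 2 at 213.4 to 271.8 CPM.

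Other measures moved with the replicate numbers. Mitochondrial transcripts took 35.1% ± 2.68 of the counts in replicates 1 and 2 and 30.3% ± 1.57 in replicates 3 and 4 (SD, n = 10 each). In every library most of this share was the ribosomal RNA mt-Rnr2. The summed level of the 10 myotube markers was 16670 ± 614 CPM (15720 to 17780) against 14890 ± 918 CPM (13610 to 16700), and 2 of the 10 were called, Ckm and Tnnt3, both lower, a share (20%) near the 13.1% of all genes called. The small marker lists that follow are to be read against the same 13.1%. The osteoblast list summed to 1463 ± 164 (1151 to 1702) against 2161 ± 167 CPM (1814 to 2397). Nearly all of this sum was Spp1 (osteopontin), at 1450 ± 163 against 2150 ± 168 CPM, which is also made by muscle cells. Spp1 rose by 0.57 and was called alone of the 3 tested genes, while Runx2 (0.07) and Bglap2 (-0.22) were not called. Fibroblast markers had 3 of 8 tested genes called, Fap, Col1a1 and Lum, all lower, at a sum of 1528 ± 63.7 against 1510 ± 79.2 CPM. Of the adipocyte markers 1 of 3 tested genes, Cebpa, was called, higher by 0.42, and none of the 12 liver genes passed the filter. The part of these measures in the results for Mef2c and Six4 was not tested.

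Muscle genes known as targets of the helix-loop-helix and MEF2 factors were also compared between replicate numbers. Of these 40 genes, 21 were lower and 3 higher in replicates 3 and 4, or 60% called against 13.1% of all genes. The median log2 difference of the 40 genes was -0.25 against 0.01 over all genes. Lower medians were also seen in the cell cycle list (-0.40) and the reserve and satellite cell list (-0.28), both described below. The target list holds mainly sarcomere, membrane and fusion genes, and some of them are also among the myotube markers. Klhl41, a Kelch protein of the sarcomere, fell by 0.69 (346 ± 29.4 to 215 ± 20.8 CPM), Tnnt1, slow troponin T, by 0.68, and Lmod3, an actin filament nucleator, by 0.51. Cdh15, M-cadherin of the myoblast surface, rose by 0.30 (268 ± 15.9 to 331 ± 19.3 CPM), and Mymx, a peptide required for myoblast fusion, by 0.38. Cdkn1a, a cell cycle inhibitor of differentiating myoblasts, rose by 0.15. The number of target genes lower ranged from 20 to 23 under the alternatives tried. In the 4 treatment comparisons 0 of the 40 were called, with at most 2 at an unadjusted p under 0.05.

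Partners and regulators of the 9 genes were called in both directions, at shares to be read against the 13.1% of all genes called. The shares were 27.8% of the bHLH partners and inhibitors, 20% of the MEF2 cofactors and regulators, 8.33% of the upstream factors and 18.8% of the chromatin cofactors, and the last 3 lie near that background. Among 18 tested bHLH partners and inhibitors, 3 were lower in replicates 3 and 4 and 2 higher: Id3, an inhibitor of E protein dimers, fell by 0.48, Heyl, a Notch target, by 0.83 and Tcf4, an E protein, by 0.18, while Twist2 rose by 0.53 and Snai1 by 0.78. Among 30 tested MEF2 cofactors and regulators, 2 were lower and 4 higher. Mapk12, a p38 kinase of muscle, fell by 0.56 (34.9 ± 3.55 to 23.6 ± 2.75 CPM), and Hdac9, a class IIa deacetylase that represses MEF2, by 0.33. Ppp3ca, the catalytic subunit of calcineurin, rose by 0.21 and Vgll4 by 0.17. Vgll2, a TEAD cofactor of muscle, rose by 1.23 at a low level (1.14 ± 0.651 to 2.5 ± 0.845 CPM). Of 12 upstream and progenitor factors 1 was called, Eya1, a coactivator that works with Six4 and its relatives, which rose by 0.28 while Six4 itself fell. Of 16 chromatin cofactors, Smarca4 rose by 0.20 while Sirt1 fell by 0.28 and Setd7 by 0.19. In the 4 treatment comparisons none of these genes was called.

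Genes listed for undifferentiated cells were called in both directions, and bulk RNA does not show which cells of the culture expressed them. Of 18 tested genes of reserve and satellite cells, a list that includes Pax7 and Myf5, 7 were lower and 3 higher in replicates 3 and 4, against 7.13% lower and 5.93% higher over all genes. Cxcr4 fell by 0.77, Megf10 by 0.29 and Tenm4 by 1.67, while Sdc4 rose by 0.36, Cd34 by 0.27 and Itga7 by 0.15. Tenm4 was low, at 0.962 ± 0.451 against 0.285 ± 0.0659 CPM, and had as few as 4 counts in a library. The summed level of the list was 2429 ± 58.2 CPM (2323 to 2522) against 2591 ± 76 CPM (2469 to 2741). The sum rose although most called genes of the list fell, because Itga7, its most abundant gene (1510 ± 53.5 to 1680 ± 71.1 CPM), and Sdc4 (236 ± 18.5 to 303 ± 13 CPM) rose. Of 18 cell cycle genes, 3 were lower (Cenpf, Ccnb1 and Kif11) and 2 higher (Rrm2 and Mcm3). This was 27.8% called, against 13.1% of all genes. The median log2 difference of the 18 genes was -0.40, against 0.01 over all genes. Only Rrm2, Mcm3, Mcm5 and Pcna had positive differences.

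**Figure D5:**
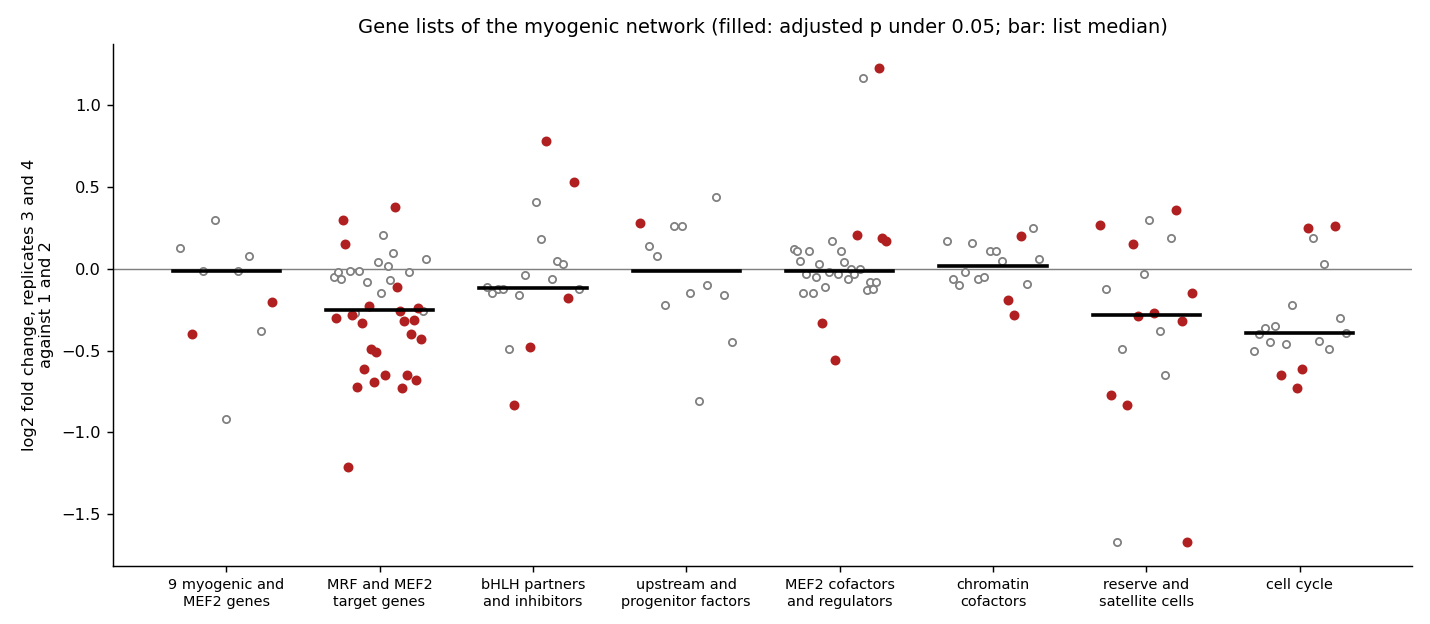
Log2 fold change in replicates 3 and 4 against 1 and 2 for every tested gene of 8 lists, with filled red points for an adjusted p under 0.05 and a bar at the list median. The target list has 21 filled points below 0 and 3 above, and the 9 genes themselves have 2 below and none above.

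Each gene was also set beside the genes whose log2 CPM varied most like its own over the 20 libraries, among 11149 genes with a mean log2 CPM above 1. For Mef2c these were Ccdc88c (r = 0.94), Pfkm (r = 0.93) and Unc45b (r = 0.93), and after removing the separate means of replicates 1 and 2 and of replicates 3 and 4 the coefficients were 0.70, 0.64 and 0.66. For Six4 they were Phldb2 (r = 0.88), Nrap (r = 0.87) and Rilpl1 (r = 0.85), with 0.67, 0.61 and 0.50 after that step. The likeness of Mef2a changed little with that step, with Rlim (r = 0.92, and 0.93 after that step), Itgav (0.89) and Slc7a1 (0.89). The nearest genes were Jpt1, Guk1 and Hmgn3 for Myog (r of 0.83, 0.82 and 0.82) and Vps54, Cavin2 and Dr1 for Myf5 (0.80, 0.77 and 0.76). They were Trmt2a, 1700120C14Rik and Apeh for Myod1 (0.77, 0.76 and 0.70) and Mrtfb, Castor2 and Ubr2 for Mef2d (0.79, 0.74 and 0.73). The low-count genes had Smarca2, Tpp1 and Pnisr for Pax7 (0.75, 0.72 and 0.72) and Firre, Gm43300 and Notch1 for Myf6 (0.72, 0.71 and 0.70). After that step the nearest gene gave 0.77 for Myod1, 0.75 for Myf5, 0.81 for Myog and 0.82 for Mef2d. For Pax7 and Myf6 the values were 0.72 and 0.73, so a small change was not particular to Mef2a. Spearman coefficients were lower for every listed neighbour of Myod1, Mef2d and Pax7, and higher for some neighbours of other genes. The Pearson coefficients were chosen as the highest of many and are descriptions only.

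Within the 2 sets of replicate numbers, no relation between Mef2c and Six4 was detected. Because the levels of both genes differed between these sets, although their ranges overlapped, no coefficient over all libraries is given. The Pearson coefficient of their log2 CPM was 0.11 within replicates 1 and 2 and 0.18 within replicates 3 and 4 (10 libraries each), and 0.15 over both after removing the mean of each set (permutation p = 0.544, Spearman 0.10, p = 0.681). It was 0.29 without the 2 libraries farthest from the median of Mef2c. Of the 36 pairs of the 9 genes tested in this way with 100000 permutations within sets, 3 had an unadjusted p under 0.05 and none an adjusted p under 0.05 (lowest 0.317). The most negative pair was Myf5 with Mef2c, at -0.54 (permutation p = 0.0200, adjusted p = 0.360) with a Spearman coefficient of -0.60 (permutation p = 0.00835, adjusted p = 0.301), and at -0.43 without the 2 farthest libraries.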

How the data were processed

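Total RNA of 20 C2C12 libraries was measured, and the authors deposited whole-number read counts per gene and library, not normalized, per the file's values. Per the labels' protocols, a strand-specific TruSeq kit was used on total RNA depleted of ribosomal RNA with Ribo-Zero. Trim Galore 0.6.6, cutadapt 2.10, STAR 2.7.6a, HTSeq 0.12.4 and DESeq2 1.32.0 and the build GRCm38 are named in the submitters' processing notes, and the annotation release and strand setting are not given in the sources used here. Reads of overlapping genes may therefore be split in an unknown way.

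The counts were analysed with edgeR 4.0.16 in R 4.3.3: filterByExpr (minimum count 10), TMM scaling, and a robust quasi-likelihood fit of treatment over all 20 libraries (15 residual degrees of freedom), or of treatment plus the split of replicates 1 and 2 against 3 and 4. P-values were adjusted over the 14605 genes tested by the Benjamini-Hochberg method at 0.05. Intervals of differences are 95% intervals from the standard error by the normal distribution, and log2 CPM used a prior count of 2. The code was tested on simulated counts. Lengths and positions are from GENCODE M21 and promoter sequences from RefSeq. Groups came from the titles and treatment labels. Replicates are biological per the series' design text. The smallest chi-square between replicates was 5.17 per gene, so no library was a duplicate. Detection limits cover counting error only, while standard errors and intervals of differences include the variation between libraries.

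The 9 genes, the gene lists and the tests were chosen with earlier results of these data known. Named genes are the 9, the 3 most similar to each, and up to 3 called genes in each direction per list. Libraries with the same replicate number deviated together in all 4 pairs (correlation over 0.1) of 3 comparisons, while replicate 2 gave 0.008 in agrin against control. The labels number the replicates alike in each treatment. The mean correlation was 0.195 for the same number and 0.201 for the other number of the same set (1 and 2, or 3 and 4). Alternatives were DESeq2 1.42.0, its size factors, no filter, removal of genes over 1% of a library, the replicate block, that split as a term, removal of each library, and, added after seeing the data, removal of 3 libraries that stood apart.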

Additional observations from a re-analysis of the deposited data

Results flagged for a closer look

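Myog in control replicate 2 was singled out at 495.2 CPM because it lay far below the other 3 control libraries. The nearest of these was at 585.3 CPM, and the gap between them made up 0.853 of the group's whole range, above Dixon's 95% critical value for 4 samples. It was 1 such value among 45 groups (9 genes in 5 treatments), where chance alone gives about 2.2. In this library 7 of the 9 genes were the highest of the 4 controls and the other 2, Myf5 and Myog, were the lowest. Replicate 1 of agrin with 13-3B5xb12 likewise held the highest or lowest value of its treatment for all 9 genes, with Mef2a, Mef2c and Six4 highest. Every other library was also at an end of its treatment for 2 to 7 of the 9 genes. The share over all genes was not taken.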

How the results depend on the processing

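Taking the replicate block into the fit gave 2 genes for agrin with 11-3F6xb12 and 2 for the test among all treatments, where the fit without it gave 0, and it changed no other call. With the split between replicates 1 and 2 and replicates 3 and 4 as a term these counts were 2 and 5. Without the filter on low counts, 4, 2, 6 and 13 genes were called in the 4 comparisons (in the order agrin, bivalent 13-3B5, agrin with 13-3B5xb12, agrin with 11-3F6xb12) and 50 in the test among all treatments, none of them among the 9 genes. Mef2c and Six4 were called under every alternative run between replicate numbers, with log2 differences of -0.436 to -0.375 and -0.217 to -0.184. Myf5 was called there in 6 refits, 1 without the filter and 5 that left out a single library (bivalent 13-3B5 replicate 1 or 3, agrin replicate 1 or 3, or agrin with 13-3B5xb12 replicate 2), at adjusted p-values down to 0.0171.

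Of 769 refits of the 45 log2 differences, 58 changed sign, all of differences that were not called. Without the 3 libraries that stood apart, agrin against control gave Myod1 0.126 and Myog -0.094, bivalent 13-3B5 against control gave Myod1 0.012 and Mef2d 0.025, agrin with 13-3B5xb12 gave Myod1 -0.004, Myog 0.030 and Six4 -0.014, agrin with 11-3F6xb12 gave Myod1 -0.018, and the replicate numbers gave Myod1 0.042 and Mef2d 0.005. Without the filter, agrin against control gave Myog -0.002 and Six4 -0.004. Leaving out single libraries moved agrin against control from -0.326 to 0.039 for Mef2a, -0.081 to 0.143 for Mef2c, -0.165 to 1.581 for Myf6, -0.124 to 0.062 for Myod1, -0.059 to 0.041 for Myog and -0.063 to 0.054 for Six4. Bivalent 13-3B5 against control moved from -0.065 to 0.159 for Mef2c, -0.102 to 0.025 for Mef2d, -0.245 to 0.117 for Myf5 and -0.083 to 0.012 for Myod1. Agrin with 13-3B5xb12 moved from -0.179 to 0.040 for Mef2c, -0.050 to 0.031 for Mef2d, -0.034 to 0.168 for Myf5 and -0.052 to 0.134 for Myod1. Agrin with 11-3F6xb12 moved from -0.142 to 0.048 for Mef2c, -0.138 to 0.735 for Myf6 and -0.018 to 0.168 for Myod1. The replicate numbers moved from -0.034 to 0.024 for Mef2d and -0.051 to 0.031 for Myod1. The cause was not tested. Depth limits Myf6 and Pax7 most.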
